A study of Mus musculus with 2 samples.

Results

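Integrins are cell-surface adhesion receptors, each built from 1 α and 1 β chain. The 10 integrin genes described here were taken from a given list, out of 27998 genes in the matrices: Itgal, Itgam, Itgax and Itgb2 (the leukocyte integrins), Itga4 and Itgb7, Itgb1 and Itga6, and Itgav and Itgb5. All 10 were found in both matrices. Itgb2 encodes β2, which pairs with αL (LFA-1), αM (Mac-1, CD11b) or αX (CD11c). The α4 chain pairs with β7 to bind MAdCAM-1 on gut venules and with β1 to bind VCAM-1, α6 with β1 binds laminin, and αv with β5 binds vitronectin and the apoptotic-cell bridge protein Mfge8.

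Macrophages were sorted from mouse small intestine and profiled by droplet single-cell RNA sequencing (10x Genomics 3′ v2 chemistry), which counts transcript ends by unique molecular identifiers (UMIs). The wild-type library came from male C57BL/6J mice supplied by Janvier. The knockout library came from CCR2-/- mice, JAX strain 004999, bred in-house. Ccr2 encodes the chemokine receptor through which blood monocytes leave the bone marrow. Each library was made from 3 to 4 pooled intestines after removal of mucus and epithelium. In both, live CD45+ cells were gated as CD11b+, MHCII+ and CD64+ after exclusion of cells bearing CD3, TCRb, B220, SiglecF, Ly6C or Ly6G. The sort therefore selected on CD11b, the protein of Itgam, and removed Ly6C+ monocytes. The age of the mice, and the sex and strain background of the knockout mice, are not given in the labels, so genotype cannot be told apart from the supply and breeding of the mice.

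There was 1 library per genotype, so no p-value can be given, and all intervals below are 95% intervals for counting error only. The wild-type suspension was loaded on 2 lanes, which are not replicates and serve as a technical yardstick. After filtering, the wild-type library held 3016 cells (lane 1 2109, lane 2 907) with 20678108 UMIs and a median of 6129 UMIs per cell. The knockout library held 2612 cells with 7265386 UMIs and a median of 2439. Because of this gap, ratios were taken over cells thinned at random to 1000 UMIs each (3015 wild-type and 2416 knockout cells, with 196 knockout cells too shallow), and summed levels are given as CPM, UMIs scaled to a total of 1000000. In a summed level, fewer expressing cells and less RNA per cell cannot be told apart. The lanes shared 5 cell barcodes, and the knockout shared 6 with lane 1 and 0 with lane 2. Ccr2 itself was at 331 CPM in wild type and 6.88 CPM in the knockout, and all 8 macrophage markers were detected in both libraries, summing to 14277 and 10716 CPM. Other marker sums also differed between the libraries: the fibroblast list was at 26.1 CPM in wild type and 232 in the knockout, the endothelial list at 52.2 and 190, and the erythroid list at 761 and 7429. The wild-type erythroid value stands for neither lane, at 1078 CPM in lane 1 and 3.44 in lane 2. The monocyte list was at 322 CPM in wild type and 147 in the knockout, where Hp was at 0.

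Itgam and Itgax are neighbours on chromosome 7 (GRCm38 positions 128062640-128118491 and 128129547-128150657, plus strand) and Itga4 (chromosome 2, 79255426-79333123, plus strand) and Itgb7 (chromosome 15, 102215995-102231944, minus strand) encode the chains of α4β7. Their promoters are shown because these gene pairs, one adjacent in the genome and one joined in a receptor, gave different patterns below. The RefSeq windows (GRCm38.p6) run from 250 to 31 bases before the start, 5′ to 3′ on the gene's strand, and capitals mark GAGGAA, a purine-rich word of the kind bound by the myeloid factor PU.1.
Itgam: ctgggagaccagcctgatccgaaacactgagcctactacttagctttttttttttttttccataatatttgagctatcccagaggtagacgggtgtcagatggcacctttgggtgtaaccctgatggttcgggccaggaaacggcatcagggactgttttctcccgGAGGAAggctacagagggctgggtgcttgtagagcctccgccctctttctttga
Itgax: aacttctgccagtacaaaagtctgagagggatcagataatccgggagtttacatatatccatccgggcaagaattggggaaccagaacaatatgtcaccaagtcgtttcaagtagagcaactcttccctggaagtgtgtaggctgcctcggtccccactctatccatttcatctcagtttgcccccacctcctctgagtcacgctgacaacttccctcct
Itga4: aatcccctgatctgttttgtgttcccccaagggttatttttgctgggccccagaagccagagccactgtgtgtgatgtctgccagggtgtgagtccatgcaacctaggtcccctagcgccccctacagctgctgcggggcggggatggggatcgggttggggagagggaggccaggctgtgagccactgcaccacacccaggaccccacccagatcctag
Itgb7: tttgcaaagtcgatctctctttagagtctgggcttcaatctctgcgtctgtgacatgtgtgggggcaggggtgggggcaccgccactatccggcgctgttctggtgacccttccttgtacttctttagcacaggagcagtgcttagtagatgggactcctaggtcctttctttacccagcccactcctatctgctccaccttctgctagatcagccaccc
The windows lie at chr7:128062390-128062609 (Itgam), chr7:128129300-128129519 (Itgax), chr2:79255176-79255395 (Itga4) and chr15:102231966-102232185 (Itgb7). GAGGAA, or TTCCTC on the other strand, was present in 6704 of 32851 windows of this length (20.4%). The table held 7 of the 10 genes (not Itgal, Itga6 or Itgb2), and of those Itgam and Itgav held the word. The other 6 genes lie on chromosomes 2 (Itga6, 71745616-71858416; Itgav, 83724397-83806916), 7 (Itgal, 127296260-127335138), 8 (Itgb1, 128685654-128733200), 10 (Itgb2, 77530252-77565708) and 16 (Itgb5, 33829665-33949338), all on the plus strand.

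The first question was how strongly each subunit was represented. By summed UMIs in wild type, Itgb5 and Itgam gave the most transcripts, at 205 CPM (198 to 211) and 197 CPM (191 to 203), and their intervals overlapped. Itgb1 followed at 158 CPM (152 to 163), Itgax at 147 (142 to 153), Itga4 at 126 (121 to 131), Itgb2 at 101 (96.7 to 106), Itgav at 86.2 (82.2 to 90.3), Itgal at 40.6 (37.9 to 43.4), Itgb7 at 24.1 (22.0 to 26.3) and Itga6 at 4.74 (3.85 to 5.78). Of the neighbours in this order, Itgb5 with Itgam and Itgb1 with Itgax had overlapping intervals. In the knockout the order was Itgb5 at 235 CPM (224 to 246), Itgax at 191 (181 to 201), Itgam at 184 (174 to 194), Itgav at 176 (167 to 186), Itgb1 at 117 (109 to 125), Itgb2 at 105 (97.7 to 113), Itga4 at 88.4 (81.7 to 95.5), Itgal at 73.0 (66.9 to 79.4), Itga6 at 15.7 (12.9 to 18.9) and Itgb7 at 5.37 (3.82 to 7.34). Here Itgax, Itgam and Itgav overlapped, as did Itgb1 with Itgb2. The chemistry counts transcript ends, so these levels carry no correction for gene length and depend on how well each end was captured.

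**Figure D1:**
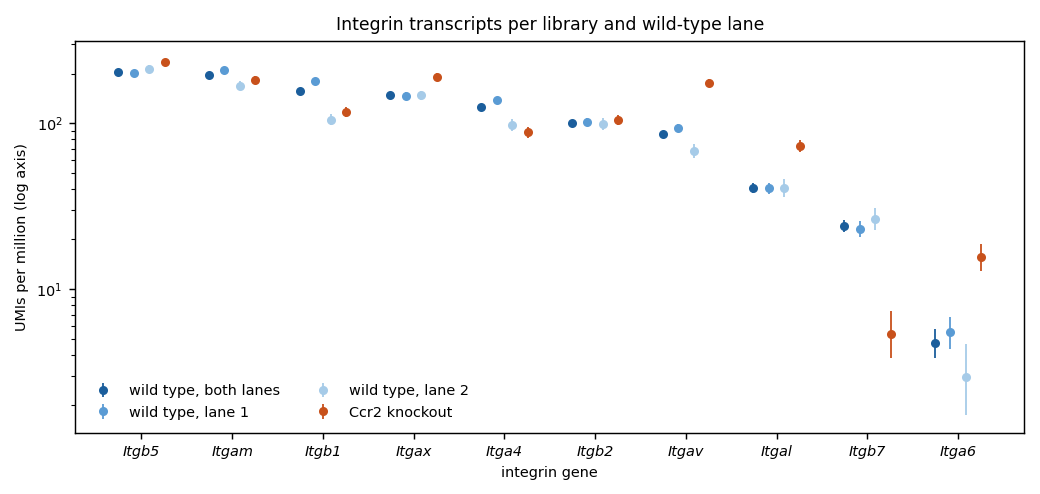
Summed level of each integrin gene in CPM (log axis) in the wild-type library, its 2 lanes and the Ccr2 knockout library. Points are values and bars are 95% counting intervals. Itgax, Itgav, Itgal and Itga6 sit higher in the knockout than in either lane, as do Itgb5 and, with overlapping intervals, Itgb2 by less. Itga4 and Itgb7 sit lower, with overlapping intervals for Itga4 in lane 2 and the knockout.

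The second question was which subunits differed between Ccr2 knockout and wild type. Itgav, Itgal and Itga6 were higher in the knockout library and Itga4 and Itgb7 were lower, while Itgam, Itgb1 and Itgb2 had intervals that included no difference. Itgax and Itgb5 were slightly higher, by about as much as the median gene. In thinned cells 7 of 10 genes had a log2 ratio above 0, taken as knockout over wild type, against 61.6% of the 7410 genes compared, so this count is near the background. One member was at least 2-fold higher, against 8.88% of all genes, and 1 was at least 2-fold lower, against 3.82%. These were Itga6 and Itgb7, which reached the minimum mean of 10 CPM only through the library where they were high, so the counts are a description and support nothing. The members' median log2 ratio was 0.16, beside 0.18 over all genes. Since that median was not 0, a scaling that sets it to 0 lowers every log2 ratio by this amount and turns Itgam to -0.14 and Itgb2 to -0.07.

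Itgb7, the β chain of the gut-homing receptor α4β7, was lowest in the knockout relative to wild type. It stood at 23.1 CPM in lane 1, 26.5 in lane 2 and 5.37 in the knockout (336, 162 and 39 UMIs). Both lanes lay above the knockout with intervals that did not meet. The thinned log2 ratio was -1.61 (-2.63 to -0.94), from 16 knockout and 67 wild-type UMIs. Of the 39 knockout UMIs, 23 (59.0%) came from 50 cells in clusters with plasma, B or T and innate lymphoid markers, where Itgb7 was at 154 CPM. In wild type those clusters held 47 of 498 UMIs (9.44%). Outside clusters led by defensin, epithelial, stromal, erythroid or lymphoid genes, Itgb7 was at 22.2 CPM (20.1 to 24.4) in wild type and 2.36 CPM (1.35 to 3.84) in the knockout, and the thinned log2 ratio was -2.71. Among cells with neither Ccr2 nor Timd4 UMIs, lymphoid-like cells included, the thinned Itgb7 ratio was -0.75, the smallest of the alternatives.

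Itga4, the α chain able to pair with β7 or β1, was at 138 CPM in lane 1, 97.9 in lane 2 and 88.4 in the knockout. The knockout was thus nearer to lane 2 than the lanes were to each other in summed level. In thinned cells the knockout value was lower, at 87.3 CPM from 211 UMIs against 132 CPM from 397 UMIs in wild type, a log2 ratio of -0.59 (-0.84 to -0.35). Against lane 2 alone it was -0.46. Itga4 overlaps the antisense gene Cerkl in the annotation, and whether counting used strand is not given in the sources used here.

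Itgav, whose product with β5 takes part in the uptake of apoptotic cells, was at 93.9 CPM in lane 1, 67.8 in lane 2 and 176 in the knockout. The knockout was above both lanes by more than the lanes differed. The thinned log2 ratio was 0.77 (0.56 to 0.98), from 450 and 329 UMIs, and 1.02 in summed levels. Its partner Itgb5 was at 202 CPM in lane 1, 212 in lane 2 and 235 in the knockout, with a thinned log2 ratio of 0.21 (0.05 to 0.38) that is close to the median of all genes. Itgal, the α chain of LFA-1, was at 40.5 CPM in lane 1, 40.8 in lane 2 and 73.0 in the knockout. The lanes were alike in this summed level only. In thinned cells lane 2 was at 41.9 CPM and lane 1 at 53.1, a log2 ratio of -0.33 (-0.91 to 0.20). Thinned knockout cells were at 76.6 CPM, which gave 0.61 (0.30 to 0.94) over wild type.

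Itga6, the laminin-binding α chain, was the scarcest member in wild type and the only one at least 2-fold higher in the knockout in thinned cells. It was at 5.49 CPM in lane 1, 2.95 in lane 2 and 15.7 in the knockout (80, 18 and 114 UMIs). Its thinned log2 ratio was 1.85 (1.14 to 3.16), from 41 and 12 UMIs. Of the knockout UMIs, 12 (10.5%) came from 38 cells of a cluster led by endothelial and fibroblast genes, a cluster with 3 cells in wild type. Outside the clusters led by genes of other cell types, Itga6 was at 4.45 CPM in wild type and 14.8 CPM in the knockout, and the thinned log2 ratio was 1.68.

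Itgax, the α chain known as CD11c, was at 147 CPM in lane 1, 148 in lane 2 and 191 in the knockout. The lanes were alike in summed level, and in thinned cells lane 2 over lane 1 gave a log2 ratio of -0.12 (-0.41 to 0.17). Knockout over wild type gave a thinned log2 ratio of 0.26 (0.08 to 0.45). Among cells with 0 Ccr2 UMIs in both libraries that ratio was -0.01, and among cells with neither Ccr2 nor Timd4 UMIs it was -0.05. Itgam, the gated CD11b chain, was at 209 CPM in lane 1, 169 in lane 2 and 184 in the knockout, which lay between the lanes. Its thinned log2 ratio was 0.04 (-0.14 to 0.21). A second identifier that carries the same symbol overlaps Itgam on the same strand, and reads in the overlap may have been dropped, so the level of Itgam is uncertain. Itgb2, the shared β chain, was at 102 CPM in lane 1, 98.9 in lane 2 and 105 in the knockout, with a thinned log2 ratio of 0.10 (-0.15 to 0.36).

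Itgb1, the most widely paired β chain, differed more between the lanes than between genotypes. It was at 179 CPM in lane 1, 105 in lane 2 and 117 in the knockout. The knockout lay between the lanes. The thinned log2 ratio of lane 2 to lane 1 was -0.67 (-1.01 to -0.36), and that of knockout to wild type was -0.17 (-0.38 to 0.03), or 0.33 against lane 2 alone. For the other members, the thinned lane intervals included 0. In summed levels the ratio of lane 2 to lane 1 was also below 0 with its interval for Itgam (-0.30, -0.41 to -0.20), Itgav (-0.46, -0.63 to -0.31), Itga4 (-0.49, -0.62 to -0.36) and Itga6 (-0.72, -1.72 to -0.15). Of the 9 members above 10 CPM, 2 were higher in lane 2, against 44.3% of all genes. None of the 9 differed 2-fold between lanes, against 0.607% of all genes higher and 2.3% lower by that much in lane 2.

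**Figure D2:**
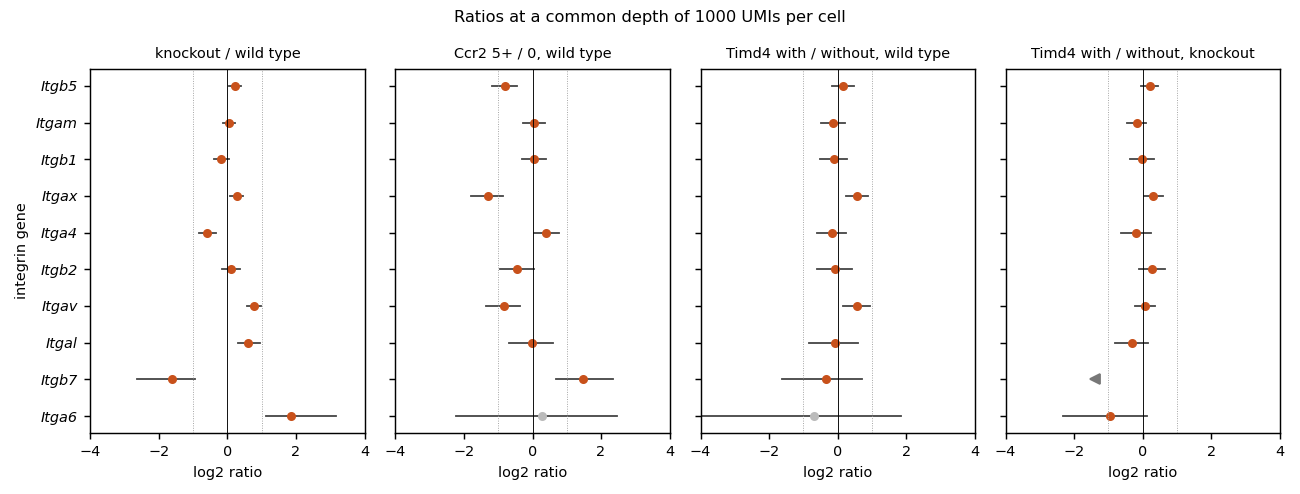
Log2 ratios of the 10 integrin genes over cells thinned to 1000 UMIs, in 4 comparisons. Bars are 95% counting intervals clipped at -4 and 4, and grey points have a mean below 10 CPM. The grey triangle is a value from a floor of 3 UMIs, and dotted lines mark 2-fold. Itgb7 and Itgax lie on opposite sides of 0 in the Ccr2 comparison.

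Within the wild-type library, cells were next grouped by their UMIs of Ccr2, a gene typical of monocytes and lost as they mature: 1692 cells had 0, 322 had 1, 432 had 2 to 4 and 570 had 5 or more. Across these classes Itgb7 was higher and Itgax, Itgav and Itgb5 were lower where Ccr2 was high. The classes rest on raw UMIs, and the highest was also the deepest (median 9378 UMIs per cell against 5303 with 0). Of the 9 members above 10 CPM (all but Itga6), 4 were higher in the highest class against 40.8% of all genes. At least 2-fold higher was 1 member against 2.53% of the 7006 genes, and 1 was at least 2-fold lower against 7.41%. The monocyte marker sum was at 149 CPM with 0 Ccr2 UMIs, 185 with 1, 429 with 2 to 4 and 620 with 5 or more. The epithelial sum was at 287 CPM with 0 and 63.5 with 5 or more, and the plasma sum at 2588 and 121. The part of these markers in the integrin differences was not tested, but without cells carrying markers of other types the thinned log2 ratios of Itgax and Itgb7 were -1.38 and 1.41.

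Itgb7 was at 13.3, 19.5, 29.8 and 41.7 CPM from the lowest to the highest Ccr2 class. In lane 1 the values were 11.4, 22.5, 27.4 and 40.4, and in lane 2 they were 17.4, 12.7, 36.3 and 45.1. The class with 5 or more UMIs was above the class with 0 in both lanes, and the sequence had 1 step down, in lane 2 on 8 UMIs. The thinned log2 ratio of the highest to the lowest class was 1.46 (0.68 to 2.35), from 26 and 27 UMIs, and 1.58 in summed levels. In lane 2 alone the thinned value was 0.51.

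Itgax went the other way, at 172, 159, 141 and 103 CPM over the same classes. In lane 1 it was at 176, 150, 140 and 103 CPM, and in lane 2 at 165, 179, 142 and 103. The lanes met at the same level in the highest class. The thinned log2 ratio was -1.31 (-1.80 to -0.87), and -0.74 in summed levels. Itgav was at 110, 79.4, 72.6 and 54.4 CPM, with a thinned log2 ratio of -0.84 (-1.37 to -0.36). Itgb5 was at 234, 205, 182 and 166 CPM, with -0.81 (-1.18 to -0.46). Both αvβ5 genes were lower in the highest class in each lane: Itgav went from 120.5 to 59.7 CPM in lane 1 and from 86.2 to 40.6 in lane 2, and the summed log2 ratios of Itgb5 were -0.51 and -0.44.

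Itga4 was at 117, 109, 131 and 145 CPM, a thinned log2 ratio of 0.40 (0.04 to 0.77). In lane 2 it was 0.14, and the summed interval there included 0. Itgam was at 176, 204, 229 and 215 CPM, with a thinned log2 ratio of 0.04 (-0.28 to 0.36) where the summed ratio was 0.29 (0.19 to 0.40). The thinned interval holds both 0 and the summed value. Itgb2 was at 110, 108, 94.7 and 85.6 CPM, with a thinned log2 ratio of -0.44 (-0.96 to 0.04). Itgb1 and Itgal had thinned log2 ratios of 0.04 and -0.01. The thinned Itgal value was 0.38 in lane 1 and -2.79 in lane 2, where all classes together held 38 thinned Itgal UMIs, too few to set the lanes apart. In summed levels Itgal was at -0.13 (-0.42 to 0.15) in lane 1 and -0.29 (-0.79 to 0.17) in lane 2. Itga6 gave 3 and 7 thinned UMIs in the highest and lowest class, too few to show a difference.

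**Figure D3:**
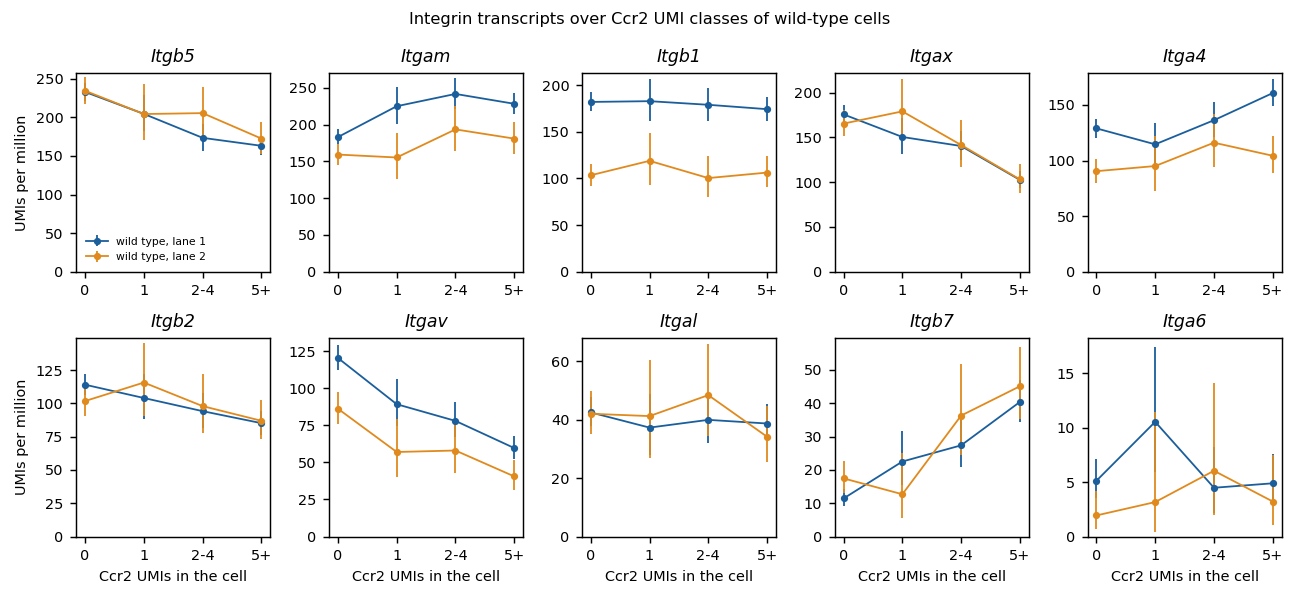
Summed level of each integrin gene in CPM over 4 classes of Ccr2 UMIs per wild-type cell, 1 line per lane, with 95% counting intervals. Itgax, Itgav and Itgb5 are lower and Itgb7 higher in the class with 5 or more UMIs in both lanes.

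Timd4, the phosphatidylserine receptor Tim-4, marks long-lived resident gut macrophages, and 445 wild-type and 815 knockout cells carried a Timd4 UMI. Timd4 stood at 34.2 CPM in wild type and 162 CPM in the knockout. In wild type, Itgax, Itgav and Itgb5 were higher and Itgb7 and Itga4 were lower in summed level in cells with Timd4. The thinned intervals of Itgb5, Itgb7 and Itga4 included no difference. In the thinned data 3 of the 9 members above 10 CPM were higher, against 54.4% of all genes, and none was 2-fold higher or lower, against 2.62% and 2.84%. In the knockout, where Itgb7 and not Itga6 was below 10 CPM, 4 of 9 were higher, against 48.2%, and none was 2-fold higher or lower, against 0.838% and 2.29%.

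In wild type, Itgax was at 197 CPM with and 138 CPM without a Timd4 UMI, a thinned log2 ratio of 0.57 (0.25 to 0.90). In lane 2 alone that ratio was 0.02, although the summed ratio there was 0.49 (0.25 to 0.74). In the knockout Itgax was at 217 and 176 CPM, a thinned log2 ratio of 0.31 (0.04 to 0.59). Itgav was at 121 and 79.9 CPM in wild type, with 0.56 (0.15 to 0.95). In the knockout it was at 193 and 167 CPM, with 0.08 (-0.21 to 0.37). Whether the Itgav ratios differ between genotypes was not tested, and their intervals overlap. Itgb5 had a summed log2 ratio of 0.28 (0.17 to 0.39) in wild type and 0.16 (0.02 to 0.30) in the knockout, with thinned values of 0.17 and 0.20 whose intervals included 0. Itga4 had a summed log2 ratio of -0.20 (-0.37 to -0.04) in wild type and -0.06 (-0.30 to 0.17) in the knockout. Its thinned values were -0.17 (-0.61 to 0.25) and -0.19 (-0.65 to 0.24), and 0.01 in wild type when thinned to 2000 UMIs. Within each wild-type lane the summed Itga4 interval included no difference.

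Itgb7 was at 12.4 CPM with and 26.2 CPM without Timd4 in wild type, a summed log2 ratio of -1.02 (-1.59 to -0.61). The thinned ratio was -0.34 (-1.63 to 0.72) from 8 and 59 UMIs, which cannot place it. In the knockout there were 0 thinned UMIs in cells with Timd4 and 16 without. With 0 replaced by a floor of 3 counts over the group, Itgb7 was 2.60-fold lower with Timd4. Its counting interval reached up to a log2 ratio of -0.91, a smaller difference, so the floor value is not a lower bound. Among all thinned knockout cells, Itgb7 was detected in 10 of 49 lymphoid-like cells and in 5 of 2367 others. The cells without Timd4 that carry it are thus mostly of that class. The part of those cells in the floor value was not tested. Among cells with Timd4, Itgb7 gave 0 UMIs in the knockout and 8 in wild type, with a mean below 10 CPM. The same floor made it 4.75-fold lower, with a counting interval up to a log2 ratio of -1.60. Itga6 in the knockout was at 10.7 CPM with and 18.5 CPM without Timd4, a thinned log2 ratio of -0.94 (-2.33 to 0.13).

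Knockout and wild type were also set side by side by Timd4 detection. These classes rest on raw UMIs, and the median depth of wild-type and knockout cells was 6154 and 3014 UMIs with Timd4, and 6119 and 2189 without. A cell without a Timd4 UMI is therefore not of equal status in the libraries. Among cells with Timd4, Itgax had a log2 ratio of -0.01 (-0.37 to 0.36), Itgav 0.36 (-0.06 to 0.80) and Itga4 -0.58 (-1.13 to -0.03). Among cells without Timd4, Itgax was at 0.25 (0.03 to 0.48), Itgav at 0.84 (0.60 to 1.09), Itga4 at -0.55 (-0.84 to -0.27), Itgal at 0.70 (0.35 to 1.07), Itga6 at 2.01 (1.23 to 3.38) and Itgb7 at -1.14 (-2.12 to -0.40). Itga4 was lower in the knockout in both kinds of cell.

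Clusters were built on both libraries with the integrin genes, Ccr2 and Timd4 left out, and are described by their leading genes, with no test. With at least 50 cells of a library in a cluster there were 11 library-by-cluster sums. The libraries fell mostly into different clusters: cluster 7, led by Vwa1, Plaur and Pgf, held 1111 knockout and 75 wild-type cells, and cluster 11, led by Cd209f, Fcna, Ccl7 and Ccl2, held 933 and 13. Wild-type cells lay mainly in cluster 0 (Pf4, 874 cells), cluster 1 (Ccl17, Ccl22, Plac8, 768 cells) and cluster 5 (H2-M2, Cd209b, Ccl24, 698 cells). Cluster 3, led by Cbr2, F13a1 and Folr2, held 89 wild-type and 233 knockout cells.

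Itgax had the widest spread of the abundant members, from 18.5 and 27.4 CPM in cluster 3 (wild type and knockout) and 89.3 in cluster 0 to 240 in cluster 5 and 303 in knockout cluster 7. Knockout cluster 7 held 42.5% of the knockout cells and 68.0% of their Itgax UMIs. Itgam ran from 125 to 304 CPM, highest in knockout cluster 11 (304) and wild-type cluster 0 (269), where Itgax was at 118 and 89.3. Itgav was at 226 CPM in knockout cluster 7, 192 in wild-type cluster 7, 180 in knockout cluster 11 and 137 in wild-type cluster 5, and was lowest, at 44.3, in wild-type cluster 3. Itga6 was at 48.2 and 29.6 CPM in cluster 3 of knockout and wild type, 24.2 in knockout cluster 11, and 10.5 or less in every other sum. Itgb7 was at 38.5 CPM in cluster 1, which held 52.0% of the wild-type Itgb7 UMIs in 25.5% of the cells, and at 34.8 in cluster 4, led by Top2a and histone genes. It was at 5.26 CPM in wild-type cluster 5, and at 0, 0.97 and 3.08 in knockout clusters 3, 7 and 11.

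**Figure D4:**
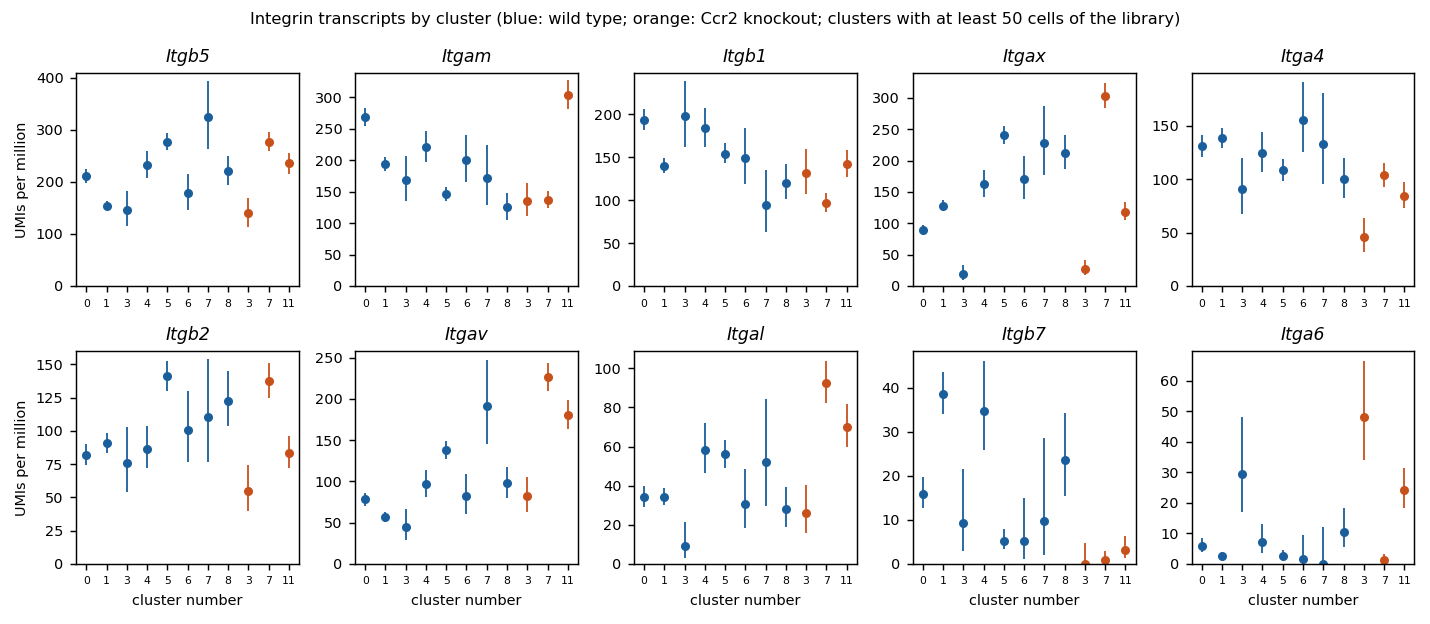
Summed level of each integrin gene in CPM by cluster number for wild type (blue) and Ccr2 knockout (orange), for clusters with at least 50 cells of the library, with 95% counting intervals. Itgax is lowest in cluster 3, where Itga6 is highest, and Itgb7 is highest in wild-type clusters 1 and 4.

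Clusters 3 and 7 held enough cells of both libraries for a value within a cluster. In cluster 3, the log2 ratio of summed levels, knockout over wild type, was 0.87 (0.19 to 1.63) for Itgav, -0.97 (-1.66 to -0.33) for Itga4 and 0.69 (-0.18 to 1.65) for Itga6. It was also 1.40 (0.04 to 3.27) for Itgal, on 20 and 5 UMIs, and -0.58 (-0.99 to -0.18) for Itgb1. Itgb7 had 0 knockout and 5 wild-type UMIs there, with an interval up to -0.38. In cluster 7 the log2 ratio was 0.42 (0.07 to 0.79) for Itgax, 0.82 (0.11 to 1.66) for Itgal and 0.24 (-0.14 to 0.65) for Itgav. For Itga4 it was -0.36 (-0.84 to 0.14), and for Itgb7 -2.45 (-6.23 to -0.43) on 3 UMIs in each library. These sums were not depth-matched. After thinning, the cluster 3 values were 0.47 for Itgav, -0.55 for Itga4, -0.0032 for Itga6 and 0.11 for Itgb1. Itgb1 thus changed sign. Itgal gave 4.55 on at most 20 knockout and 5 wild-type UMIs, a size that the pseudocount sets. Itgb7 had no knockout UMI before thinning, so its thinned value of 0 stands for no UMI in either library and not for equal levels. The cluster 7 values were 0.04 for Itgax, 1.19 for Itgal, 0.27 for Itgav and -0.74 for Itga4. Itgb7 gave -3.82 there, on at most 3 UMIs in each library, so its size cannot be read. These thinned values carry no interval. In cluster 3, Itga6 had only 37 knockout and 16 wild-type UMIs before thinning. Whether the higher Itga6 of the knockout is present within cluster 3 thus cannot be told.

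Over the 11 sums, which share 2 libraries and differ in depth, Pearson correlations of log2 levels describe how the members went together. Itgax followed Itgb2 (r = 0.86) and Itgb5 (0.79), Itgav followed Itgal (0.87) and Itgb5 (0.86), and Itga6 ran against Itga4 (-0.86) and Itgax (-0.83). The neighbouring genes Itgam and Itgax did not go together (-0.07), Itgam and its partner Itgb2 were at -0.32, and Itga4 with Itgb7 at 0.53. The genes most like each member over the same 11 sums were Tspan13, Asb2 and Cd244 for Itgax (0.99, 0.99 and 0.98), Vwa5a, Anxa3 and Ralb for Itgam (0.86, 0.84 and 0.83), Syk, Homer1 and A930007I19Rik for Itgal (all 0.96), and Cln8, Atp8a1 and Ubl3 for Itgav (0.98, 0.98 and 0.97). For Itga4 they were Batf3, Aasdhppt and Ms4a6c (0.94, 0.93 and 0.91), for Itga6 Cdr2, Pmp22 and Il21r (0.97, 0.97 and 0.96), and for Itgb1 Yy1, Cwc15 and Rap1a (0.92, 0.92 and 0.91). For Itgb2 they were Pla2g7, Spon1 and Ggta1 (0.96, 0.95 and 0.93), and for Itgb5 Tmprss5, Dock4 and Sema6d (0.98, 0.97 and 0.97). For Itgb7 they were Snrpc, Fbl and Tctex1d2 (0.94, 0.92 and 0.90). These were picked as the highest among all genes with a mean of at least 10 CPM. Over only 11 sums, high values follow partly from that choice, so they are a description.

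Shares of cells with a UMI were read beside cells of the B-, plasma- and T- or innate lymphoid-like clusters. Those cells came from the same CD11b+ sort, so they are not known to lack the CD11 chains αM and αX. Among thinned cells, Itgax was detected in 0 of 40 wild-type and 0 of 49 knockout lymphoid-like cells (upper limits 8.81% and 7.25%), at median depths of 7725 and 2235 UMIs. It was detected in 14.2% and 16.6% of all other cells, at median depths of 6105 and 2447 UMIs. Itgam was detected in 2.50% and 0% of lymphoid-like cells and in 17.4% and 18.0% of the others. At full depth the lymphoid-like cells were not empty of these chains. In wild type they held Itgax at 49.96 CPM (17 UMIs) and Itgam at 61.7 CPM (21 UMIs), against 146 and 204 CPM outside the clusters led by genes of other types. In the knockout they held Itgax at 26.8 CPM (4 UMIs) and no Itgam UMI, against 200 and 194 CPM. Itgb7 was the reverse, in 17.5% and 20.4% of lymphoid-like cells against 1.95% and 0.211% of the others. Itga6 was detected in 0.403% and 1.56% of the other cells and in 0% and 2.04% of lymphoid-like cells. Its detection outside that class was thus no higher than inside within the counting intervals. Unthinned, Itgax was detected in 50.7% of wild-type and 33.7% of knockout cells, an order that goes against its CPM.

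The rest of the integrin pathway was read from 4 lists. Of 17 other integrin subunits, 1 was above 10 CPM: Itga9, which pairs with β1, at 98.0 CPM in wild type and 126 in the knockout (thinned log2 ratio 0.31). The next most abundant, Itga5, the fibronectin receptor chain, was at 7.98 and 7.02 CPM. Of 32 genes for activation and adaptors, 27 were above 10 CPM, with 13 higher, against 61.6% of all genes, and 14 lower in the knockout. Of the 27, 3 were at least 2-fold higher: Rassf5, a Rap1 effector that binds αL, at 1.13, Cytip, a partner of cytohesin, at 1.10, and Cyth1, cytohesin-1, which binds the β2 tail, at 1.12. That share is near the 8.88% of all genes. By the mean of the libraries, the most abundant were the adaptor Fyb, at 575 CPM (wild type) and 507 CPM (knockout), and the kinase Lyn, at 333 and 468. In wild type alone Rap1b, at 353 CPM, was above Lyn.

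Of 20 ligand genes, 8 had a mean above 10 CPM, and 7 of these were higher in the knockout, against 61.6% of all genes. Of the 8, 5 were at least 2-fold higher, against 8.88% of all genes. They were Cyr61 at 3.30, Vcam1, the α4β1 ligand, at 3.06, Fn1 (fibronectin) at 1.72, Thbs1 (thrombospondin-1) at 1.51 and F11r (JAM-A, a ligand of LFA-1) at 1.33. Cyr61 and Fn1 rested on 5 and 13 wild-type thinned UMIs and passed the minimum only through the knockout, so the ligand counts are a description and support nothing. The most abundant ligands were Tgfbi, at 615 CPM (wild type) and 476 CPM (knockout), and Tgfb1, whose latent form binds αv integrins, at 301 and 316. All 10 membrane partners were above 10 CPM and 9 were higher, against 61.6% of all genes, with a median of 0.21 beside 0.18. Of the 10, 1 was at least 2-fold higher, against 8.88% of all genes. This was Plaur, the urokinase receptor, at 1.98, and it also leads cluster 7. By the mean of the libraries, the most abundant partners were the tetraspanin Cd81, at 1614 CPM (wild type) and 1236 CPM (knockout), and Slc3a2, the CD98 heavy chain, at 284 and 355. Cd53 was at 285 and 353, so its order with Slc3a2 is not settled. The endothelial and fibroblast marker sums given above were higher in the knockout beside these ligand values, and their part was not tested.

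In the highest Ccr2 class of wild type, the pathway genes at least 2-fold higher than with 0 Ccr2 UMIs were Zyx (zyxin, log2 ratio 1.32) and C3 (1.83 on 11 and 8 UMIs), whose fragment iC3b is bound by αMβ2. Those at least 2-fold lower were Cyth1 (-1.13), F11r (-1.21), Vcam1 (-2.52 on 2 and 42 UMIs) and the tetraspanins Cd9 (-1.13) and Cd63 (-2.24). The named genes came from 27 adaptor, 7 ligand and 10 membrane partner genes above 10 CPM. Over all genes, 2.53% were at least 2-fold higher and 7.41% lower. C3 and Vcam1 passed the minimum of 10 CPM only through the class where they were high, so their values are descriptions. In cells with Timd4 in wild type, Cd63 was at 1.16 and Zyx at -1.09, out of 27, 6 and 10 genes of these lists. Over all genes, 2.62% were at least 2-fold higher and 2.84% lower there. In the knockout, cells with Timd4 had Fn1 at -2.79 (2 and 38 UMIs), Cyr61 at -1.80 and the tetraspanin Cd151 at -1.27. All 3 passed the minimum only through cells without Timd4. They stood among 27, 9 and 10 genes of these lists, and 2.29% of all genes were at least 2-fold lower in this comparison. The fibroblast marker sum was at 30.5 CPM with and 346 CPM without Timd4. The part of those cells in the Fn1 value was not tested.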

How the data were processed

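The authors deposited UMI counts per gene and cell for 1 wild-type and 1 CCR2-/- library, made with Cell Ranger 3.0.1 on mm10 per the submitters' processing notes. The gene annotation, the cell calling and any equalisation of lane depth are not given in the sources used here. Gene positions are from a GENCODE annotation of GRCm38.

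The cell filter was a minimum of 200 genes and a maximum of 10% mitochondrial UMIs (3016 of 3054 and 2612 of 2774). Each was thinned to 1000 UMIs, and log2 ratios of summed UMIs per 1000000 were taken with a pseudocount of 1, which understates ratios of low genes. Intervals (exact Poisson, Clopper-Pearson or conditional binomial, 95%) carry no pseudocount and cover counting error only. Counts over lists used genes with a mean of at least 10 CPM in thinned cells. Lanes were told apart by barcode suffix. Clusters were made with scanpy 1.11.5 (2000 variable genes, 30 components, 15 neighbours, Leiden resolution 0.8 in igraph 0.11.9), and scipy 1.17.1 gave intervals. Doublets were not removed except as an alternative, by the highest Scrublet scores in each lane. The steps were checked on simulated data.

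Itgam is the identifier ENSMUSG00000030786. Of the marker lists, Trbc2, Igha and Igkc were not found. The members and all lists were chosen with earlier results of these data known. All 10 members are named, and of each other pathway list, the genes at least 2-fold different and above 10 CPM (at most 5 per direction) plus the most abundant 2. The 3 genes with the highest Pearson correlation of log2(CPM + 10) were named as most like each member.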

Additional observations from a re-analysis of the deposited data

Results flagged for a closer look

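Itgb2 had opposite directions by Timd4 detection: the thinned log2 ratio of cells with to without a Timd4 UMI was -0.066 in wild type and 0.27 in the knockout. Both intervals included 0 and the difference between them was not tested. In summed levels the directions were the same, at 0.11 (-0.06 to 0.28) in wild type and 0.29 (0.08 to 0.51) in the knockout. The wild-type sign was also positive with 2 or more Timd4 UMIs and in lane 2.

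The second identifier with the symbol Itgam, which is not among the compared genes, had 5.42 CPM in wild type and 5.09 CPM in the knockout, above the limit that a count of 0 allows. It overlaps Itgam on chromosome 7, from 128062683 to 128128160 on the same strand.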

How the results depend on the processing

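No paired analysis was possible because there was 1 library per genotype. In the comparison of knockout with wild type, Itgal, Itgav, Itga4, Itga6 and Itgb7 kept their sign under all 15 alternatives: Itgal from 0.21 to 0.85, Itgav from 0.53 to 1.12, Itga4 from -0.76 to -0.35, Itga6 from 0.95 to 3.09 and Itgb7 from -2.84 to -0.75. The others did not: Itgam from -0.24 to 0.17, Itgax from -0.05 to 0.39, Itgb1 from -0.52 to 0.33, Itgb2 from -0.17 to 0.22 and Itgb5 from -0.04 to 0.27. The restriction to cells with neither Timd4 nor Ccr2 UMIs, and the removal of clusters led by genes of other types, were chosen after seeing the data. Counts here are over all 10 members. Those at least 2-fold higher (1) numbered 2 in summed CPM and 0 with a pseudocount of 10. Members at least 2-fold lower (1) numbered 0 in cells of 2000 to 4000 UMIs, with a pseudocount of 10, and without Timd4 and Ccr2 UMIs, where 4 rather than 7 were higher. Between lanes, 4 rather than 2 were higher in summed CPM and 0 rather than 1 (Itga6) were 2-fold lower. In the Ccr2 comparison, 3 rather than 5 were higher when thinned to 2000 UMIs or with a class of 2 or more UMIs. The 2-fold lower count (1) was 0 in summed CPM and with that class, and 4 in lane 2, where the 2-fold higher count (1) was 0. By Timd4 in wild type, 7 rather than 3 were higher when thinned to 2000 UMIs or in summed CPM, and 6 with 2 or more Timd4 UMIs or in lane 2. The 2-fold lower count (0) was 1 in summed CPM, with 2 or more Timd4 UMIs and with the stricter cell filter, and 2 in lane 2. By Timd4 in the knockout, the 2-fold lower count (1, Itgb7) was 2 when thinned to 2000 UMIs, in cells of 2000 to 4000 UMIs and with 2 or more Timd4 UMIs, and 0 with a pseudocount of 10. The cause of these shifts was not tested. Depth limits Itga6 and Itgb7 most, on 12 wild-type and 16 knockout thinned UMIs.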

Other observations

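Detection of partner chains, and of the α chains Itgam and Itgax, in the same cell was read in cells thinned to 2000 UMIs. Itgam was detected in 25.8% (22.6 to 29.2) of wild-type cells with an Itgax UMI and in 33.3% (31.3 to 35.3) of those without, and in 23.4% and 28.1% in the knockout. Itgb2 was detected in 19.5% of wild-type cells with and 15.8% without Itgax, and in 24.2% (20.4 to 28.4) and 16.9% (14.8 to 19.3) in the knockout. Itgb5 was detected in 38.0% of wild-type cells with and 33.0% without Itgav, and in 41.5% and 35.8% in the knockout. Itgb7 was detected in 3.92% of wild-type cells with and 3.46% without Itga4. An Itga4 and an Itgb7 UMI were found together in 0.837% of wild-type and 0.0627% of knockout cells. A UMI missing from a cell at this depth does not show that the chain is absent.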
